A study of Homo sapiens with 15 samples.

Results

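The butyrophilin family was followed in K562 cells exposed to valproic acid. It was taken as the 6 genes BTN1A1, BTN2A1, BTN2A2, BTN3A1, BTN3A2 and BTN3A3, found by their symbols in the annotation of the arrays, out of 18334 measured genes. All 6 were measured, by 13 probes, and no filter on low values was applied. The family was selected on the early rise of BTN2A2 in these same arrays, so the ratios of BTN2A2 at 2, 6 and 10 h are given as a description with no test. K562 is an established human line from a chronic myeloid leukaemia with erythroid and megakaryocytic features, and the labels call it DNSZ K562. Cells of this line were given 1 mM valproic acid, a fatty acid drug that inhibits histone deacetylases, and collected after 2, 6, 10, 48 or 72 h. Untreated K562 cells of the same time, whose agent is labelled none, were the reference on every array, and the labels name no vehicle. Each time had 3 arrays, 15 in all, and each of the 3 replicates came from its own thawing of the line, 10 days before treatment. Replicates 1 and 2 had treated RNA in Cy5, and replicate 3 had it in Cy3.

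Butyrophilins are membrane proteins of the immunoglobulin superfamily related to the B7 costimulatory proteins, and most carry an intracellular B30.2 domain. BTN3A1 binds phosphoantigens, which are intermediates of isoprenoid synthesis, with that domain, and together with BTN2A1 it presents this state to the main γδ T cell population of human blood. BTN3A2 lacks the domain and assists BTN3A1, and BTN3A3 has a domain that does not bind phosphoantigens in the same way. BTN2A1 is itself a ligand of the γδ T cell receptor. BTN2A2 inhibits T cell activation, as described mainly for its mouse counterpart, and BTN1A1 is a major protein of milk fat globules. The genes lie side by side on chromosome 6, next to a large histone gene cluster and in the extended major histocompatibility complex region.

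Every value is a ratio of treated to untreated RNA on a log scale, read as log2 although the base is not stated. Folds depend on this reading, and tests are free of it. The array medians lay between −0.0052 and 0.017, and the SD over all probes of an array lay between 0.211 and 0.432. Ratios carry no level, so neither the abundance of a member nor its presence can be read from them, and dim probes could not be removed. Precision is limited by the number of arrays, and the SE of a gene at 1 time had a median of 0.060. Over all genes replicate 3 correlated with the mean of replicates 1 and 2 at r = 0.535, 0.721, 0.674, 0.827 and 0.811 at 2, 6, 10, 48 and 72 h. RNA came from whole cultures, in which fewer cells of a type and less RNA per cell cannot be told apart.

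In RefSeq on GRCh38.p14 the members stand in the order BTN3A2 (chr6:26365169-26378320), BTN2A2 (chr6:26383108-26394874), BTN3A1 (chr6:26402275-26415208), BTN3A3 (chr6:26440504-26453415), BTN2A1 (chr6:26457955-26476622) and BTN1A1 (chr6:26500303-26510425). The genome build behind the array annotation was not given in the sources used here, and these positions come from the reference table alone. Promoter windows of 250 bases before to 50 bases after a RefSeq start site were matched for 4 of the 6 members, BTN3A2, BTN3A3, BTN2A1 and BTN1A1. Those of 3 genes are shown because they share a stretch of sequence. They are chr6:26364948-26365247 of BTN3A2, chr6:26440254-26440553 of BTN3A3 and chr6:26457705-26458004 of BTN2A1, all on the plus strand of GRCh38.p14. Capitals mark CCAAT on either strand (ATTGG on the printed strand for the reverse match) and an 11-base run, CCCAGCAACTG, that the 3 windows share and that was found after the sequences were seen.
BTN3A2: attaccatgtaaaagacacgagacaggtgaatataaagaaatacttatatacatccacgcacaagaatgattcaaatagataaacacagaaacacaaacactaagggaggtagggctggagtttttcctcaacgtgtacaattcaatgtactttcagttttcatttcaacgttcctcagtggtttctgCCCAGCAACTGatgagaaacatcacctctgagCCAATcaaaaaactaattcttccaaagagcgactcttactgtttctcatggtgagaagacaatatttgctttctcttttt
BTN3A3: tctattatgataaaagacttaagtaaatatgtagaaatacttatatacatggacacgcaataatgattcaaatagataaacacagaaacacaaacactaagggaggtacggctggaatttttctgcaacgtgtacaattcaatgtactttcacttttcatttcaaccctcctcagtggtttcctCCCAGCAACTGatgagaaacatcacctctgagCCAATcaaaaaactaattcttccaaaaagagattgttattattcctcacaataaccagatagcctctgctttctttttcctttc
BTN2A1: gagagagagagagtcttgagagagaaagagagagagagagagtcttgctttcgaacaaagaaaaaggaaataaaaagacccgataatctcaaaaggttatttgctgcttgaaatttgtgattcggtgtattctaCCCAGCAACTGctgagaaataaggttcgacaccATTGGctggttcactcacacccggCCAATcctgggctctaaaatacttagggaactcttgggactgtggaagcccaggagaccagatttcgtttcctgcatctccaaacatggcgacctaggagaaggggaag

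The windows of BTN3A2 and BTN3A3 were 82.3% identical in a global alignment and shared an unbroken run of 58 bases. BTN2A1 was 43.5% identical to BTN3A2 and 43.7% to BTN3A3. The 11-base run lay at −62 to −52 from the start site of BTN3A2, at −66 to −56 of BTN3A3 and at −116 to −106 of BTN2A1. It was picked as the longest run these windows share, so its presence in them is not a result. It occurred in 21 of 35097 RefSeq promoter windows (0.06%), the windows shown here among them. CCAAT on either strand occurred in 34.6% of windows, but it is shorter, so the shares are not comparable. CCAAT, the core of the Y box bound by NF-Y, was found at −30 to −26 in BTN3A2 and at −34 to −30 in BTN3A3. BTN2A1 had it on the minus strand at −83 to −79 and on the plus strand at −59 to −55. The interferon response element core, GAAANNGAAA, was found on either strand in 3.58% of windows and, of the 4 members whose windows were searched, in BTN3A3 alone, on the minus strand at 36 to 45 after the start. The letters of the GC box (GGGCGG, 44.9% of windows), of the cyclic AMP response element (TGACGTCA, 1.85%) and of the E box (CACGTG, 7.25%) were in none of the 5 windows of these 4 genes. These matches are descriptions of letters and not of binding.

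BTN2A2, the inhibitory member that chose the family, was higher in treated cells on every one of the 15 arrays. Its ratios were 1.26, 1.23 and 1.07 in replicates 1, 2 and 3 at 2 h. They were 1.49, 1.39 and 1.36 at 6 h and 1.50, 0.98 and 1.22 at 10 h. These early arrays stood close together, with replicate 2 at 10 h the lowest. The later ratios were 1.02, 1.00 and 0.82 at 48 h, and 1.04, 0.29 and 0.53 at 72 h. Replicate 1 at 72 h was as high as the 48 h arrays, while replicates 2 and 3 lay below every other array of the gene. The fitted ratios were 1.17 ± 0.11 (SE, n = 3) at 2 h, 1.39 ± 0.11 at 6 h and 1.21 ± 0.11 at 10 h, which are 2.24-, 2.63- and 2.32-fold. By mean ratio, counted from the highest, BTN2A2 stood at rank 7 of 18334 genes at 2 h and at rank 45, 134, 553 and 1052 at 6, 10, 48 and 72 h. The orientation of replicate 3 at 2 h is the least certain of the arrays. The 2 h mean of 1.19 was 1.25 (rank 4) without that array and 0.48 (rank 18) with its sign turned for all genes, both chosen after seeing the data. When each array was scaled to the same median absolute ratio, the fitted value at 2 h was 1.90, and the difference of 6 h minus 2 h was −0.46 in place of 0.23.

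The late ratios of BTN2A2 did not choose the family and were tested. BTN2A2 rose at 48 h by 0.93 ± 0.11 (SE, n = 3, limma adjusted p = 3.16e-05, 95% interval 0.68 to 1.17), a 1.90-fold change. It also rose at 72 h, by 0.60 ± 0.11 (limma adjusted p = 0.00101, interval 0.36 to 0.85), a 1.52-fold change. Both calls held under all 12 alternative settings, which changed the fit or the scaling or left out arrays, with values of 0.81 to 1.01 at 48 h and of 0.41 to 0.79 at 72 h. The genes called higher were 23.3% of all genes at 48 h and 22.1% at 72 h. The difference of 72 h minus 48 h, −0.32 ± 0.16, was not called (limma adjusted p = 0.410, interval −0.67 to 0.018). Replicate 2 at 72 h, where BTN2A2 was lowest, had the lowest of the 15 array weights, 0.392, and without it the ratio at 72 h was 0.79.

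**Figure D1:**
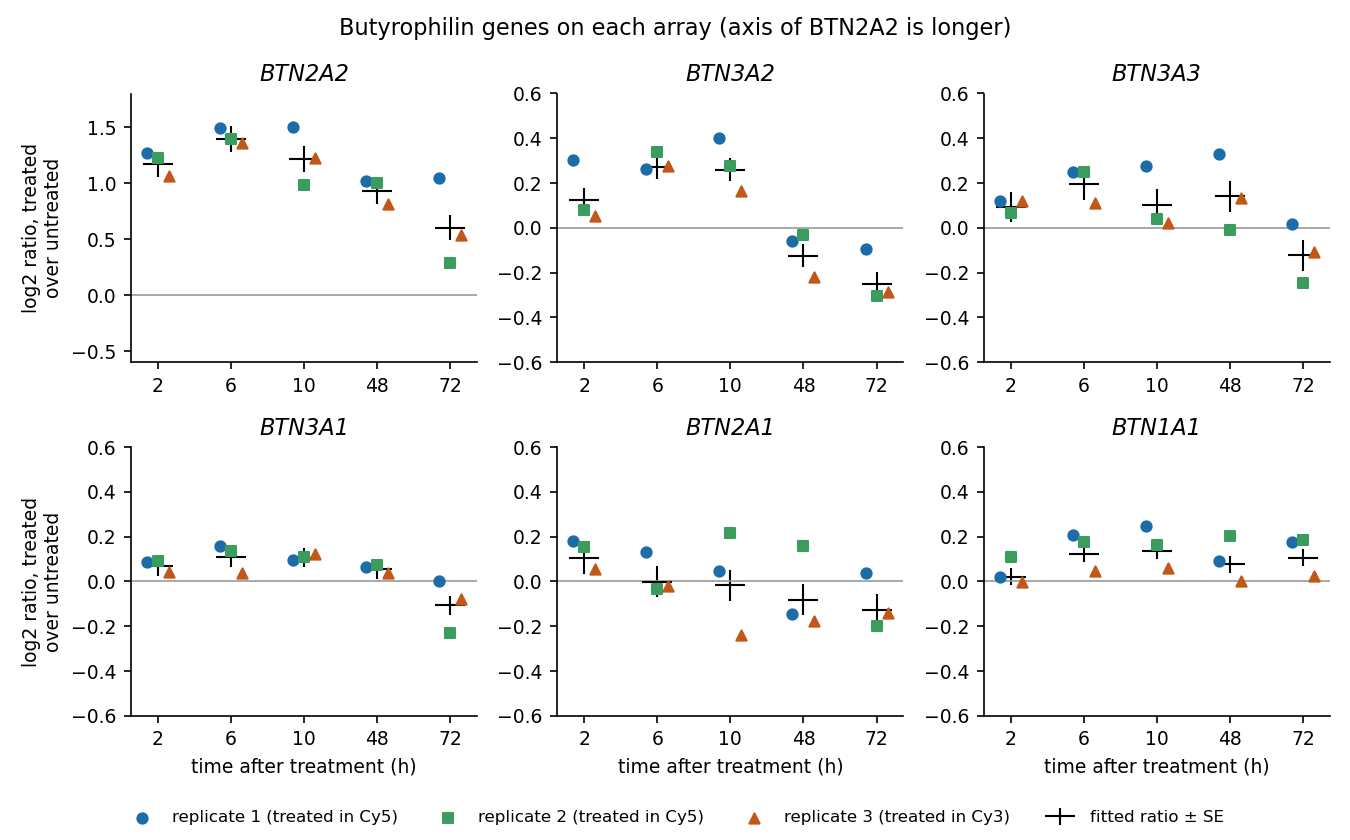
Log2 ratio of treated over untreated RNA (vertical axis) of each butyrophilin gene on every array by hours after treatment (horizontal axis), with replicates as symbols and the fitted ratio ± SE in black; the axis of BTN2A2 is longer than the others. BTN2A2 lies above 0 on all 15 arrays. The mean of the BTN3A2 probes lies above 0 on all arrays up to 10 h and below 0 on all arrays at 48 and 72 h.

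The array held 4 probes for BTN2A2, and all 4 were above 0 on all 15 arrays. Probe 43640 gave the highest mean ratio at every time, 1.50 at 2 h, 1.76 at 6 h, 1.54 at 10 h, 1.16 at 48 h and 0.81 at 72 h. The lowest mean came from probe 25606 at 2, 6 and 72 h (0.92, 1.15 and 0.49) and from probe 2528 at 10 and 48 h (0.97 and 0.77). The highest and the lowest probe mean differed by 0.58 at 2 h and by 0.32 at 72 h, and each probe had its highest mean at 6 h and its lowest at 72 h. Probe 16245 lay between them, with fitted ratios of 1.32, 1.59, 1.36, 1.00 and 0.65 at 2, 6, 10, 48 and 72 h. Tested one by one over 31332 probes, all 4 rose at 48 h and at 72 h (limma adjusted p at most 0.00022 at 48 h and 0.014 at 72 h), where 21.4% and 19.8% of all probes were called higher. BTN2A1 is a close relative of BTN2A2, and a probe can bind the RNA of both, which was not tested.

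**Figure D2:**
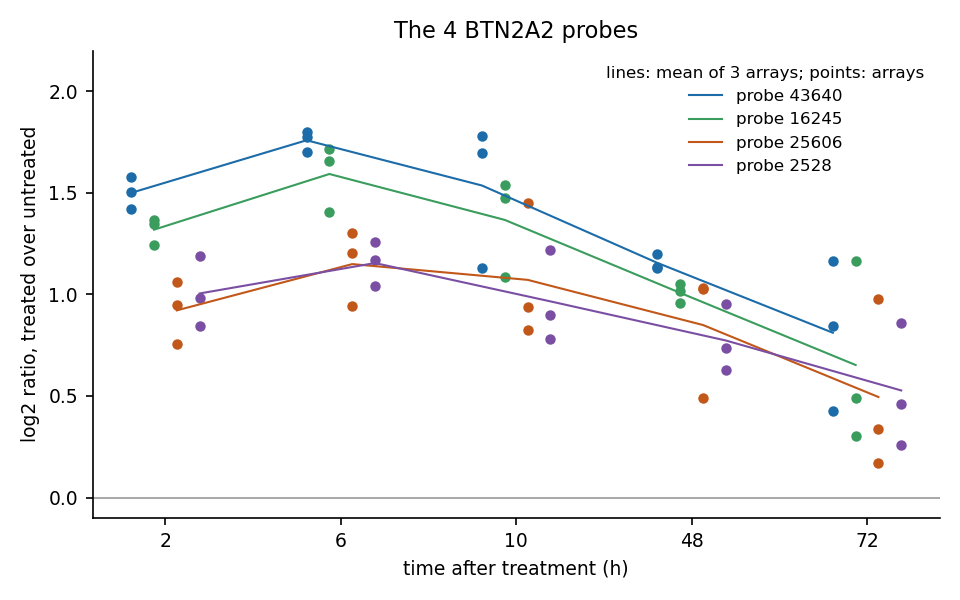
Log2 ratio of treated over untreated RNA (vertical axis) for the 4 probes of BTN2A2 by hours after treatment (horizontal axis, evenly spaced), with points for arrays and lines through the mean of 3 arrays; points and lines of the probes are set side by side at each time. All 4 lines peak at 6 h and end lowest at 72 h, with means between 0.49 and 0.81.

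BTN3A2, the short partner of BTN3A1, was higher in treated cells early and lower late. Its ratios were 0.30, 0.079 and 0.054 in replicates 1, 2 and 3 at 2 h, then 0.26, 0.34 and 0.28 at 6 h and 0.40, 0.28 and 0.16 at 10 h. They were −0.058, −0.034 and −0.22 at 48 h and −0.096, −0.31 and −0.28 at 72 h. By the mean of its probes, the 9 arrays of the first 10 h were all above 0 and the 6 later arrays all below it. Its single probes were not all below 0 at 48 h. How many of all genes were separated in this way was not counted. BTN3A2 rose at 6 h by 0.27 ± 0.05 (SE, n = 3, limma adjusted p = 0.0017) and at 10 h by 0.26 ± 0.05 (limma adjusted p = 0.0022), 1.21- and 1.20-fold, and both calls held under all 12 settings. It fell at 72 h by 0.25 ± 0.05 (limma adjusted p = 0.0024), a ratio of 0.842-fold. That call was lost without replicate 3 (−0.20, limma adjusted p = 0.089) and held under the other 11 settings. At 2 h the ratio was 0.12 ± 0.05 (limma adjusted p = 0.235) and at 48 h −0.12 ± 0.05 (limma adjusted p = 0.085), neither of them called.

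Both BTN3A2 probes rose at 6 h and at 10 h, when 16.7% and 15.9% of all probes were called higher. Probe 6469 had 0.33 ± 0.07 at 6 h and 0.27 ± 0.07 at 10 h, and probe 12478 had 0.22 ± 0.07 and 0.25 ± 0.07. At 48 h probe 6469 had −0.095 ± 0.07 and probe 12478 had −0.15 ± 0.07, neither of them called. Each probe had 1 array above 0 at 48 h, replicate 1 for probe 6469 (0.0995) and replicate 2 for probe 12478 (0.083). At 72 h probe 6469 fell by 0.33 ± 0.07 (limma adjusted p = 0.0020), and probe 12478 had −0.16 ± 0.07 (limma adjusted p = 0.079). Of all probes 13.4% were called lower at 72 h. The BTN3A genes are near-identical over long stretches, so a probe of any of them can report RNA of its relatives, and their separate ratios are uncertain.

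BTN3A1, the phosphoantigen sensor, had small ratios. Its 3 probes averaged 0.085, 0.093 and 0.042 in replicates 1, 2 and 3 at 2 h. In the same order the 6 h averages were 0.16, 0.14 and 0.040, followed at 10 h by 0.098, 0.11 and 0.12. The later averages were 0.064, 0.074 and 0.039 at 48 h and 0.0004, −0.23 and −0.079 at 72 h. All 12 arrays up to 48 h were slightly above 0, and 2 of the 3 at 72 h were below it. No time was called, with fitted ratios of 0.069, 0.11, 0.11, 0.055 and −0.11 ± 0.04 and limma adjusted p of 0.516, 0.085, 0.085, 0.372 and 0.073 at 2, 6, 10, 48 and 72 h. Of its single probes, probe 15067 fell at 72 h by 0.17 ± 0.06 (limma adjusted p = 0.037), against −0.12 and −0.029 for probes 39639 and 43359, which were not called.

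BTN3A3 was read by a single probe. Its ratios were 0.12, 0.068 and 0.12 in replicates 1, 2 and 3 at 2 h. The 6 h ratios were 0.25, 0.25 and 0.11, and those at 10 h were 0.28, 0.040 and 0.021. At 48 h they were 0.33, −0.011 and 0.13, and at 72 h 0.018, −0.25 and −0.11. Replicate 1 was the highest array at 10, 48 and 72 h, and the arrays of those times spread over more than the size of the ratio. The highest fitted ratio, 0.19 ± 0.07 at 6 h, missed the threshold (limma adjusted p = 0.051), and it was called in 4 of 12 settings, among them the replicate block (limma adjusted p = 0.0150). Its 48 h ratio was 0.14 ± 0.07 (limma adjusted p = 0.132), and without replicate 2 it was 0.23 (limma adjusted p = 0.018).

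BTN2A1, the γδ T cell receptor ligand, had no call at any time or setting. Its 2 probes averaged 0.18, 0.16 and 0.057 in replicates 1, 2 and 3 at 2 h, and 0.13, −0.035 and −0.018 at 6 h. The 10 h averages were 0.048, 0.22 and −0.24. Those of 48 h were −0.15, 0.16 and −0.17, followed at 72 h by 0.039, −0.20 and −0.14. Arrays of 1 time lay on both sides of 0 from 6 h on. The fitted ratios ran from 0.11 at 2 h to −0.13 at 72 h, with an SE of 0.07 at each time and limma adjusted p of at least 0.193. The 95% intervals reached 0.26 at 2 h and −0.28 at 72 h, so changes within these bounds could not be resolved with these arrays.

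BTN1A1, the milk fat globule protein, was read by 1 probe and had small positive ratios. They were 0.022, 0.11 and −0.0006 in replicates 1, 2 and 3 at 2 h. For 6 h the ratios were 0.21, 0.18 and 0.048, and those at 10 h were 0.25, 0.16 and 0.058. At 48 h they were 0.091, 0.20 and 0.0028, and at 72 h 0.18, 0.18 and 0.025. Replicate 3, the one with exchanged dyes, was the lowest array at every time. The dye term of BTN1A1 was called, at 0.066 ± 0.02 (limma adjusted p = 0.019), as it was for 3693 genes, and for 0 of the other 5 members. With that term in the fit BTN1A1 rose at 6 h by 0.12 ± 0.04 (limma adjusted p = 0.024), at 10 h by 0.14 ± 0.04 (limma adjusted p = 0.014) and at 72 h by 0.11 ± 0.04 (limma adjusted p = 0.039), which are 1.09-, 1.10- and 1.08-fold. The calls were kept in 6, 8 and 4 of 12 settings. Each of the 3 was lost without replicate 1 (limma adjusted p = 0.114, 0.125 and 0.120) and without replicate 2 (0.137, 0.065 and 0.196), and those at 6 h and 72 h also without the dye term (0.068 and 0.091). At 72 h the tests of single probes gave a limma adjusted p of 0.061.

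The 5 members other than BTN2A2 were counted against the background of all genes, and counts of 0 to 2 among 5 genes are too few to set them apart from it. At 2 h 0 of the 5 were called higher and 0 lower (all genes 4.82% higher and 1.53% lower), with 1 of the 5 at an unadjusted limma p under 0.05. At 6 h 2 rose, BTN3A2 and BTN1A1, and 0 fell (19% and 9.66% of all genes). The same 2 rose at 10 h and 0 fell (18.1% and 11.6%). At 48 h 0 rose and 0 fell (23.3% and 14.6%), with BTN3A2 alone at an unadjusted limma p under 0.05. At 72 h BTN1A1 rose and BTN3A2 fell (22.1% and 13.6%). The median ratio of these 5 was 0.093, 0.12, 0.11, 0.055 and −0.12 at 2, 6, 10, 48 and 72 h, against 0.0046, 0.0090, 0.011, 0.0056 and 0.013 for all genes. Without any 1 replicate the counts of members higher were 1 or 2 at 6 h and at 10 h and 0 or 1 at 48 h and at 72 h, and array weights gave 4 at 6 h.

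Late and early times were compared by subtracting the mean ratio over 2, 6 and 10 h from that over 48 and 72 h. BTN3A2 fell by 0.41 ± 0.05 between early and late times (SE, 15 arrays, limma adjusted p = 4.94e-05, 95% interval −0.51 to −0.30), and this held under all 9 settings. BTN3A1 fell by 0.12 ± 0.04 (limma adjusted p = 0.038), a call lost under 5 of 9 settings, including without replicate 1, 2 or 3 (limma adjusted p = 0.095, 0.260 and 0.170). The differences of BTN3A3, −0.12 ± 0.06, and of BTN2A1, −0.13 ± 0.06, were close to that of BTN3A1 in size and were not called (limma adjusted p = 0.186 and 0.153). BTN1A1 had −0.0012 ± 0.03, with an interval of −0.074 to 0.071. So 0 of the 5 rose and 2 fell, where 14.9% of all genes rose and 11% fell. BTN2A2, for which no test was made because its early ratios chose the family, had −0.49 ± 0.10.

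**Figure D3:**
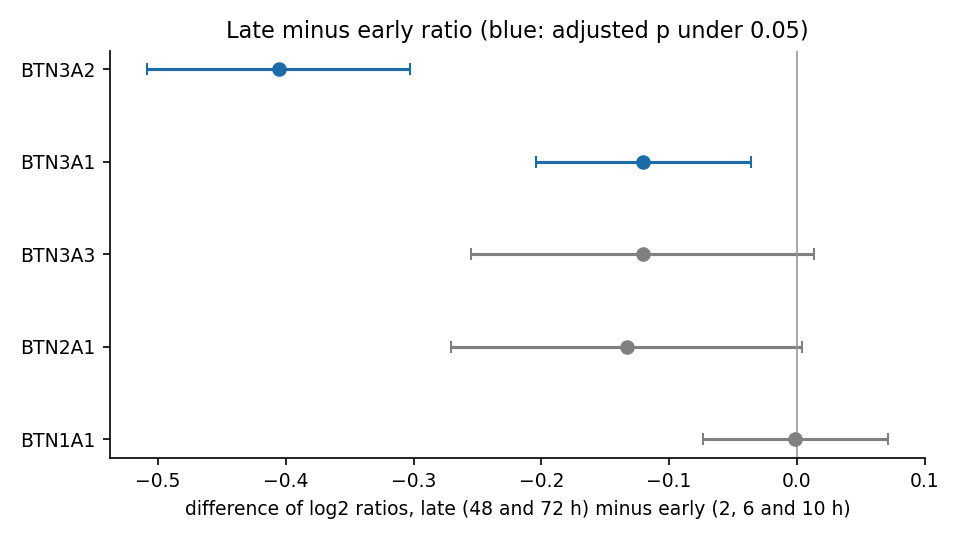
Difference of log2 ratios, late (48 and 72 h) minus early (2, 6 and 10 h), on the horizontal axis for the 5 members other than BTN2A2, with points for the fitted difference and bars for its 95% interval. BTN3A2 lies farthest from 0, at −0.41, and the interval of BTN1A1 is centred on 0.

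Of the 5 members tested between neighbouring times, BTN3A2 was the one called. From 2 h to 6 h 0 members rose and 0 fell (2.42% and 0.955% of all genes), and from 6 h to 10 h again 0 rose and 0 fell (0.00545% and 0%), with 0 of the 5 at an unadjusted limma p under 0.05 in either step. From 10 h to 48 h 0 rose and BTN3A2 fell, by 0.38 ± 0.07 (limma adjusted p = 0.0096), where 3.57% of all genes rose and 1.37% fell. The fall of BTN3A2 kept its size without replicate 1, 2 or 3 (−0.35, −0.42 and −0.38) but was not called in these smaller sets (limma adjusted p = 0.063, 0.056 and 0.184). From 48 h to 72 h 0 members and 0 genes were called in either direction (0% and 0%). BTN3A3 (−0.26 ± 0.10) and BTN3A1 (−0.16 ± 0.06) were at an unadjusted limma p under 0.05 in that last step, and their limma adjusted p were 0.292 and 0.298.

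The shape of the time course was compared by Pearson's r over the 15 arrays, which share dyes, thawings and the broad response of the cells, so these values describe likeness and carry no test. The ratios of BTN2A2 ran most like those of DENND5A (r = 0.958), CAMLG (0.950), PHF21A (0.946), MCFD2 (0.942) and TNFRSF10B (0.939). TNFRSF10B encodes a death receptor for the ligand TRAIL, and its mean ratio was 0.75 at 2 h and 0.056 at 72 h. DENND5A had 0.43 at 2 h, 0.56 at 6 h and −0.12 at 72 h. At 72 h BTN2A2 itself had a mean ratio of 0.62, and these 5 genes lay between −0.12 and 0.066. Within the family BTN2A2 correlated with BTN3A2 at 0.885, BTN3A1 at 0.868, BTN3A3 at 0.770, BTN2A1 at 0.464 and BTN1A1 at 0.202. The genes most like BTN3A2 were SPATA22 (0.950), PTPRB (0.940) and RPA1 (0.938), a subunit of the single-strand DNA binding protein RPA. PHF21A, which encodes a protein of a histone demethylase complex, was also among the 3 genes most like BTN3A1 (0.924), with GINM1 (0.926) and ADPRM (0.924). BTN3A3 ran most like ZNF626 (0.929), SEC24D (0.899) and RGPD5 (0.893), BTN2A1 most like UQCRC2 (0.872), LSM7 (0.866) and ZNF438 (0.851), and BTN1A1 most like PSKH1 (0.931), RRAGA (0.913) and PLGLB1 (0.910).

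On the chromosome BTN2A2 lies between BTN3A2 and BTN3A1. Its fitted ratio of 1.39 at 6 h, against 0.27 and 0.11 for these 2, is among the values that chose the family. At 48 h, a time that did not choose it, BTN2A2 had 0.93 against −0.12 for BTN3A2 and 0.055 for BTN3A1. The genes that start within 250 kb of the first or last member numbered 23 measured besides the family, 20 of them histone genes and the others HMGN4, ABT1 and ZNF322. HMGN4, which encodes a nucleosome-binding protein and lies next to BTN1A1, rose by 0.64 ± 0.10 at 2 h, 1.00 ± 0.10 at 6 h, 0.79 ± 0.10 at 10 h and 0.51 ± 0.10 at 48 h (limma adjusted p at most 0.0015). Its probes can also bind RNA of the related HMGN2, which was not tested. ZNF322, a zinc finger gene, rose at 10 h by 0.51 ± 0.08 (limma adjusted p = 0.00052) and at 48 h by 0.43 ± 0.08. The 23 neighbours counted 1 higher and 0 lower at 2 h. There were 2 higher and 2 lower genes at 6 h, and 2 higher with 0 lower at 10 h. At 48 h 3 were higher and 4 lower, while 72 h gave 9 higher and 0 lower. Of all genes, 4.82, 19, 18.1, 23.3 and 22.1% were called higher and 1.53, 9.66, 11.6, 14.6 and 13.6% lower at 2, 6, 10, 48 and 72 h. All 4 called lower at 48 h were histone genes, among them H2AC8 with −0.64 ± 0.12 (limma adjusted p = 0.0013), and histone probes can bind several near-identical genes. Of the 3 called higher at 48 h the histone gene H4C4 had the largest ratio, 0.57 ± 0.15 (limma adjusted p = 0.0075). That call was lost without replicate 1 and with scaled arrays. Over the settings the neighbours called higher at 72 h ranged from 5 to 16 and those lower at 48 h from 2 to 9. At 72 h the neighbours' median ratio was 0.28, when BTN3A2, BTN3A1, BTN3A3 and BTN2A1 all had fitted ratios below 0.

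**Figure D4:**
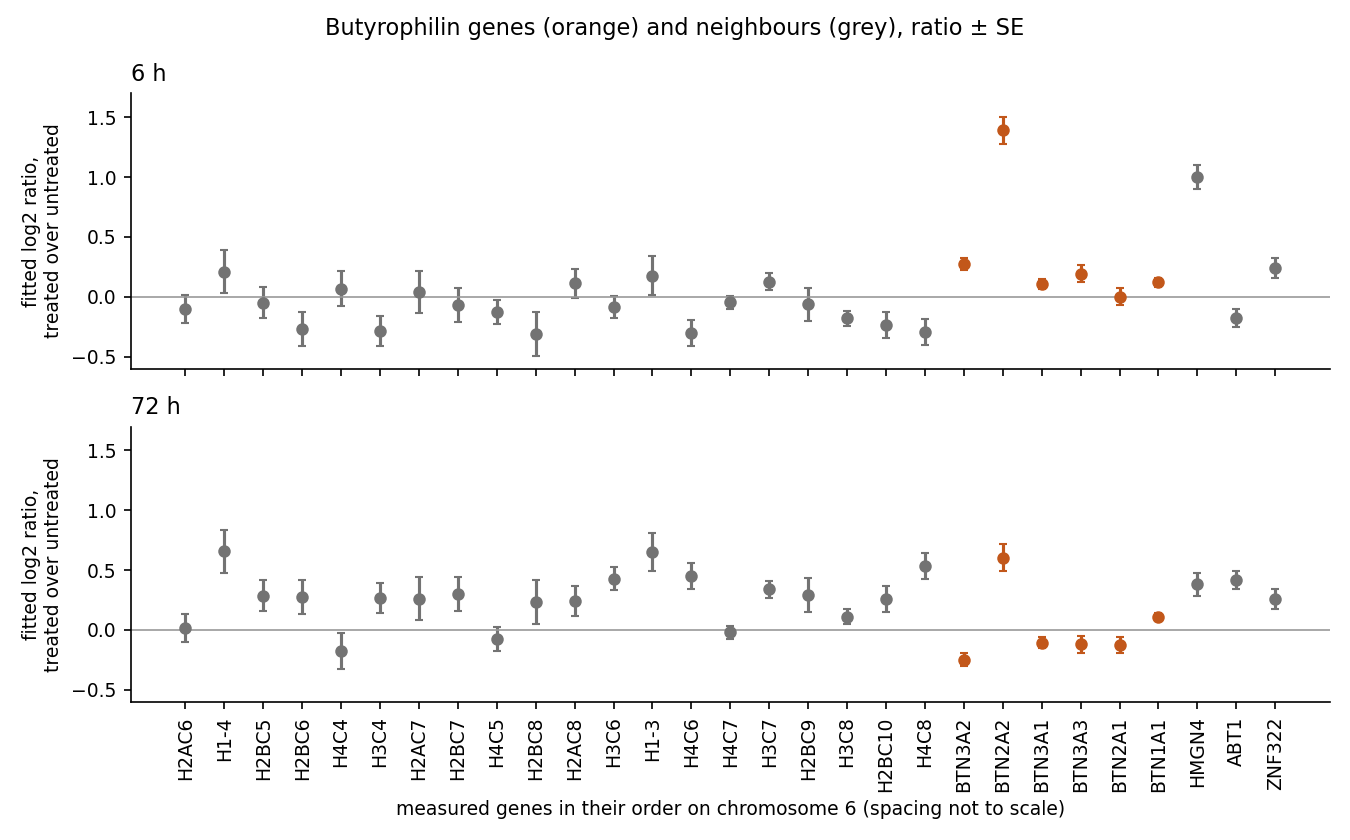
Fitted log2 ratio of treated over untreated RNA ± SE (vertical axis) at 6 h and at 72 h for the 6 butyrophilin genes (orange) and the 23 measured neighbours (grey) in their order on chromosome 6 (horizontal axis, spacing not to scale). At 6 h BTN2A2 (1.39), whose early rise chose the family, and HMGN4 (1.00) stand above all others. At 72 h most histone genes are above 0 while 4 butyrophilin genes are below 0.

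The other genes of the butyrophilin system were read from lists, as genes called higher and lower. Beside them stand the shares of all genes given above for the chromosome neighbours, and the medians over all genes, which were 0.0046, 0.0090, 0.011, 0.0056 and 0.013 at 2, 6, 10, 48 and 72 h. With 5 to 11 genes a list, a difference of 1 or 2 genes from those shares is not read as a result. Of the butyrophilin-like genes 5 of 8 were measured, and 0 and 0, 1 and 0, 1 and 1, 1 and 0, and 1 and 0 were called higher and lower at 2, 6, 10, 48 and 72 h, with medians of −0.0062, −0.028, 0.078, 0.032 and 0.057. The one higher at 72 h was BTNL9, by 0.23 ± 0.04 (limma adjusted p = 0.00029), and its call there held under every setting. ERMAP, an erythroid membrane protein with a B30.2 domain, fell at 10 h by 0.29 ± 0.08 (limma adjusted p = 0.016). That call was lost without replicate 1 and without replicate 3 of that time. All 10 costimulatory B7 relatives were measured, with 0 called at 2 h and at 6 h, 1 higher at 10 h, 2 higher at 48 h, and 2 higher and 2 lower at 72 h. Of all genes 22.1% were higher and 13.6% lower at 72 h, and the 2 lower became 0 without replicate 1, 2 or 3. CD276 (B7-H3) rose at 48 h by 0.27 ± 0.04 (limma adjusted p = 0.00025) and VSIR (VISTA) at 72 h by 0.30 ± 0.06 (limma adjusted p = 0.0020). The call of VSIR was lost without replicate 3 (limma adjusted p = 0.064). The medians of the B7 relatives were −0.023, −0.024, −0.044, 0.0077 and −0.0078 at 2, 6, 10, 48 and 72 h.

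The mevalonate pathway supplies the phosphoantigens that BTN3A1 binds, and 8 of its 11 listed enzymes were measured. At 2 h 0 were called, 0 rose and 3 fell at 6 h and at 10 h, 4 rose and 1 fell at 48 h, and 6 rose and 1 fell at 72 h. Of all genes 23.3% rose and 14.6% fell at 48 h, and 22.1% and 13.6% at 72 h. Over the settings 0 to 3 enzymes fell at 6 h, with 0 without replicate 1 or 2, 1 to 5 fell at 10 h, and 2 to 5 rose at 48 h. The medians were −0.041, −0.12, −0.12, 0.18 and 0.35 at 2, 6, 10, 48 and 72 h. At 72 h HMGCS1, the synthase that commits to the pathway, rose by 0.81 ± 0.07 (limma adjusted p = 2.27e-06), IDI1, the isomerase of isopentenyl pyrophosphate, by 0.49 ± 0.05 (limma adjusted p = 5.56e-06), PMVK by 0.36 ± 0.06 and FDPS, the synthase that consumes isopentenyl pyrophosphate, by 0.35 ± 0.06. ACAT2, which makes the first intermediate, fell at 72 h by 0.47 ± 0.08 (limma adjusted p = 0.00032). These calls at 72 h held under every setting, and over the settings 4 to 6 enzymes rose and 1 fell. The sensor BTN3A1 and its partner BTN2A1 were not called at 72 h, at −0.11 and −0.13. Of 7 proteins known to bind butyrophilins or to sit with BTN1A1 on milk fat globules, MFGE8, a globule coat protein, rose at 10, 48 and 72 h by 0.42, 0.51 and 0.60 ± 0.05 (limma adjusted p at most 2.55e-05). XDH, the oxidoreductase that binds BTN1A1, was not called at any time, with ratios from −0.076 to −0.011. In all, 1, 3, 2, 3 and 2 of the 7 rose and 0, 0, 0, 1 and 0 fell at 2, 6, 10, 48 and 72 h, with medians of 0.014, −0.014, 0.020, −0.056 and 0.0080.

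Regulators described for these genes were read the same way. The SXY enhanceosome is the assembly of RFX, CREB and NF-Y proteins with NLRC5 or CIITA that drives genes of the major histocompatibility complex, and it has been described at BTN3A promoters. All 9 of its listed genes were measured, of which 1, 1, 0, 0 and 1 rose and 1, 2, 2, 2 and 0 fell at 2, 6, 10, 48 and 72 h, with medians of −0.0081, −0.0077, 0.0098, 0.0060 and −0.067. Of all genes 9.66, 11.6 and 14.6% fell at 6, 10 and 48 h, so 2 of 9 is close to the background. NFYA, a subunit of the CCAAT-binding NF-Y, fell by 0.68 ± 0.06 at 2 h (limma adjusted p = 5.19e-05), 0.52 ± 0.06 at 6 h, 0.44 ± 0.06 at 10 h and 0.32 ± 0.06 at 48 h. NFYC, another subunit, fell at 6 h by 0.31 ± 0.05 and at 10 h by 0.25 ± 0.05 (limma adjusted p = 0.00035 and 0.0014). The coactivators NLRC5 (−0.046 to 0.064) and CIITA (−0.025 to 0.0098) were not called at any time. Of the interferon pathway 11 of 13 genes were measured, and 3, 6, 1, 2 and 0 rose and 1, 1, 1, 0 and 2 fell at 2, 6, 10, 48 and 72 h. Of all genes 4.82, 19, 18.1, 23.3 and 22.1% rose over the same times, so the counts from 10 h on are at or below the background of genes higher. IFNGR1, a chain of the interferon γ receptor, rose at 6 h by 0.70 ± 0.13 (limma adjusted p = 0.0011). JAK2, a kinase of that receptor, fell at 72 h by 0.50 ± 0.07 (limma adjusted p = 0.00011). JAK1, a kinase on the same list, rose at 6 h by 0.40 ± 0.09 (limma adjusted p = 0.0041) and at 48 h by 0.45 ± 0.09 (limma adjusted p = 0.0013). The 6 h call of JAK1 was lost without replicate 3 of that time. The medians were 0.16, 0.18, 0.064, −0.014 and −0.054 at the 5 times, against medians of 0.013 or less over all genes. Without replicates or under other settings, the count of interferon genes higher lay between 0 and 6 for 2 h, and between 1 and 6 for 6 h. No test of how these regulators relate to the butyrophilin ratios was made.

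Markers of cell identity were also called. Of all genes 4.82, 19, 18.1, 23.3 and 22.1% rose at 2, 6, 10, 48 and 72 h. At the same times 1.53, 9.66, 11.6, 14.6 and 13.6% fell. With 5 to 8 markers a list, a difference of 1 or 2 genes from those shares is not read as a result. Of 8 measured erythroid markers 0, 0, 1, 2 and 2 rose and 1, 3, 3, 3 and 2 fell at 2, 6, 10, 48 and 72 h. KLF1, the erythroid transcription factor, fell at every time, by 0.44, 0.71, 0.72, 0.84 and 0.50 ± 0.09 (limma adjusted p at most 0.0095). Its 2 h call was lost without the dye term and without replicate 1 or 3 of that time. TFRC, the transferrin receptor, fell at 6 h by 0.55 ± 0.10 and at 10 h by 0.71 ± 0.10 and rose at 72 h by 0.62 ± 0.10 (limma adjusted p at most 0.0014). GATA1 fell at 6 h by 0.27 ± 0.05 (limma adjusted p = 0.0018), a call lost without the dye term. The globin gene HBE1 fell at 48 h by 0.61 ± 0.10 (limma adjusted p = 0.00041), which held under every setting. HBZ, another globin gene, fell at 72 h by 0.90 ± 0.27 (limma adjusted p = 0.020), a call lost without replicate 2 or 3. EPOR, the erythropoietin receptor, rose at 10, 48 and 72 h by 0.20, 0.27 and 0.54 ± 0.06 (limma adjusted p = 0.036, 0.0054 and 2.99e-05). Its 10 h call was lost without replicate 1 or 2, with scaled arrays and with array weights. The 48 h call of EPOR was lost without replicate 2 and without replicate 3 of that time. Of 5 megakaryocyte markers 2 rose at 48 h and 1 at 72 h, the common one being GP9 with 0.51 and 0.38 ± 0.07. Of 5 monocyte markers 2 rose at 48 h and 3 at 72 h, LYZ by 1.69 and 1.76 ± 0.08 (limma adjusted p = 8.28e-09 and 7.21e-09) and ITGAM by 0.93 and 0.82 ± 0.11, while CD14 and CSF1R were not called at any time. Of 8 lymphocyte markers 2 rose at 48 h and at 72 h, CD3D by 1.55 and 1.57 ± 0.12 and CD3G by 0.51 and 0.54 ± 0.09, the 48 h call of CD3G being lost without replicate 3 (limma adjusted p = 0.088). At 10 h CD3D rose by 0.50 ± 0.12 (limma adjusted p = 0.0062), a call lost without replicate 3 of that time. CD3E fell at 10 h by 0.17 ± 0.06 (limma adjusted p = 0.038), a call lost without replicate 1, 2 or 3, without the dye term and with scaled arrays. CD8A, CD2, NKG7, MS4A1 and CD79A were not called at any time. At 2 h and 6 h 0 of the monocyte, megakaryocyte and lymphocyte markers were called, and 1 and 3 of the erythroid ones were lower. The part of any change in cell identity in the butyrophilin ratios was not tested.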

How the data were processed

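The deposited table holds, per the labels, treated to untreated log ratios of 45220 probes on 15 arrays. The authors did not state the base, and the values were taken as log2. The submitters' processing notes name limma for these ratios, and how background was corrected and arrays normalized is not given in the sources used here. RNA input was 700 ng per the labels' protocols. The direction was taken from the labels, and replicate 3 was used as deposited.

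Platform annotation gave 1 symbol to 31332 probes, whose means per gene gave 18334 genes (93 probes with several symbols and 13795 with none were left out). R 4.3.3 with limma 3.58.1 (lmFit, eBayes) fitted 5 time means and a dye term to all 15 arrays, with 9 residual degrees of freedom, a prior of 3.47 and Benjamini-Hochberg adjustment over all genes. Genes were called at an adjusted p under 0.05. The dye term also takes up what is peculiar to the third thawing. The fit was tested on simulated data with changes at 48 h and noise drawn independently for each array. It recovered 54.5% of changes of 0.3, 88.9% of 0.5 and 98.9% of 1, and 4.82% of its calls were false. Likeness of arrays from 1 thawing, beyond the dye term, was not simulated. Alternatives were no dye term, a replicate block, scaled arrays, array weights, the median of probes, robust eBayes, arrays left out and single probes.

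Same-numbered arrays come from 1 thawing per the labels. Before the dye term their residual correlations averaged 0.183, 0.153 and 0.525 for replicates 1, 2 and 3. Over all probes, replicate 3 correlated with the mean of the others at −0.0895 at 2 h, where its orientation is least certain.

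The members and lists were chosen with earlier results of these data known. Genes named were the 6 members, up to 4 called genes of a list at a time with 1 sign on 3 of 3 arrays, any gene of a list with at most 9 measured, and the genes most correlated with each member. Promoters are from RefSeq (GRCh38.p14), aligned with Biopython 1.88.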

Additional observations from a re-analysis of the deposited data

Results flagged for a closer look

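For 3 results the treated over untreated ratio of a butyrophilin gene differed between times by a test of the difference itself. BTN3A2 had a late minus early difference of −0.41 ± 0.05 on the log2 scale (SE, 15 arrays, limma adjusted p = 4.94e-05). Of all genes 11% were called lower late minus early. BTN3A2 also had a difference of −0.38 ± 0.07 from 10 h to 48 h (limma adjusted p = 0.0096), where 1.37% of all genes were called lower. This call was kept in 6 of 9 settings and lost without replicate 1, 2 or 3. BTN3A1 had a late minus early difference of −0.12 ± 0.04 (limma adjusted p = 0.038), a call kept in 4 of 9 settings. Its 48 h arrays were at 0.064, 0.074 and 0.039, where its early arrays lay between 0.040 and 0.16.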

How the results depend on the processing

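BTN2A2 at 48 and 72 h, BTN3A2 at 6 and 10 h and the late minus early fall of BTN3A2 kept direction and call under every alternative fit, scaling and omission run. Array numbers and unknown signal over background limit all values. The replicate block changed 1 member call, BTN3A3 at 6 h (0.19, adjusted p 0.0150 in limma), and left 0 genes higher from 6 h to 10 h in place of 1.

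Without the dye term 0 members were higher at 72 h and 1 was lower late minus early, and all genes gave 1331 lower late minus early, 223 higher and 65 lower from 2 h to 6 h, and 120 lower from 10 h to 48 h. With scaled arrays 1 member was higher at 2 h and 0 at 72 h, BTN2A2 had 1.90 at 2 h, and all genes gave 2553 higher and 1322 lower at 2 h, 236 higher from 2 h to 6 h, 0 from 6 h to 10 h, and 319 higher and 86 lower from 10 h to 48 h. With array weights 1 member was higher at 2 h, 4 at 6 h and 0 at 72 h, and 1 was lower at 48 h. All genes then gave 2230 higher and 1023 lower at 2 h, 1401 and 655 from 2 h to 6 h, 1 lower from 6 h to 10 h, and 1165 and 480 from 10 h to 48 h. With the median of probes 1 member was lower late minus early. Single BTN2A2 probes gave 1.32, 0.98, 0.86 and 1.51 at 2 h, 1.59, 1.13, 1.09 and 1.77 at 6 h, and, for 2 of them, 0.94 and 1.54 at 10 h. The cause of these shifts was not tested.

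Leaving out replicates, with fewer arrays, gave 328 to 639 genes higher and 70 to 211 lower at 2 h. Genes lower were 1152 to 1560 at 6 h, 1141 to 1863 at 10 h, 1673 to 2183 at 48 h and 1380 to 2366 at 72 h. Late minus early gave 1367 to 2224 higher and 631 to 1553 lower. From 2 h to 6 h there were 4 to 189 higher and 0 to 51 lower, from 6 h to 10 h 0 higher, from 10 h to 48 h 106 to 352 higher and 25 to 110 lower, and from 48 h to 72 h 0 to 25 higher and 0 to 65 lower. Members higher were 1 to 2 at 6 h and at 10 h and 0 to 1 at 48 h and at 72 h. Members lower were 0 to 2 at 72 h, 1 late minus early and 0 from 10 h to 48 h.

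Signs turned only for values that were not called, besides the untested 6 h minus 2 h difference of BTN2A2, −0.46 with scaled arrays. The largest turns were of BTN2A1, from −0.017 to 0.13 at 10 h and from −0.046 to 0.11 for 72 h minus 48 h. BTN2A1 at 6 h was 0.026 without the dye term, 0.0012 scaled, 0.0059 weighted, −0.042 to 0.056 with replicates left out and 0.0063 by probe 7668. At 10 h it was 0.0094 without the dye term, 0.057 by probe 7668 and −0.095 to 0.13 with replicates left out, and at 48 h −0.16 to 0.0058. Its steps were 0.017 weighted and −0.13 to 0.0014 from 10 h to 48 h, −0.15 to 0.085 from 6 h to 10 h and −0.16 to 0.11 from 48 h to 72 h. BTN1A1 ranged from −0.0092 to 0.065 at 2 h, −0.0013 to 0.025 from 6 h to 10 h and −0.023 to 0.011 late minus early, where weights gave 0.0028. BTN3A1 gave −0.0064 from 2 h to 6 h scaled, 0.021 from 6 h to 10 h weighted and −0.043 to 0.029 with replicates left out, and BTN3A2 −0.087 to 0.038 from 6 h to 10 h.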
